A study of Mus musculus with 6 samples.

Results

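The genes described here are 10 core components of Notch signalling, chosen by name for their roles: the receptors Notch1, Notch2 and Notch4, the ligands Jag1, Jag2, Dll1 and Dll4, and the target genes Hes1, Hey1 and Hey2. They are 10 of the 18193 genes that had a probe set of their own on the array, and they held 18 of the 45037 probe sets tested. Each gene was represented by its brightest probe set, which is the one with the highest mean log2 signal over all arrays, and its other probe sets served as a check.

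The study asked which genes stay altered in bone marrow stromal cells (BMSC) after they have entered brain tissue damaged by a stroke. Total RNA of 2 groups of cultured cells was hybridized to Affymetrix mouse genome arrays, with 3 arrays for each group. Naïve Large T BMSC were adherent bone marrow cells of H-2Kb-tsA58 transgenic mice (Immortomouse, a CBA/ca and C57Bl/10 hybrid), whose large T antigen of SV40 is temperature-sensitive and lets the cells divide at 33°C. iLarge T BMSC were such cells that had been injected intravenously, 24 h after the stroke, into male C57BL/6 mice of 6 to 8 weeks, in which a middle cerebral artery had been occluded for 60 minutes. At 14 days after injection, collagenase was used to free them from the infarcted side of the brain, and they were grown again at 33°C. Both groups carried the transgene, and both were passaged 3 times before freezing. The recovered cells were selected by growth at 33°C and not by a sort. Each array held RNA pooled from 3 cultures or 3 hemispheres, so the spread between arrays is a spread between pools. By the submitters' numbers, which are used below, arrays 1, 3 and 5 held naïve BMSC, and arrays 2, 4 and 6 held the recovered cells.

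Notch receptors are membrane proteins that are activated by Jagged or Delta-like ligands on a neighbouring cell. Binding leads to cleavage by an ADAM protease and by gamma-secretase, and the freed intracellular part of the receptor joins the DNA-binding protein RBPJ and Mastermind coactivators to switch on target genes, foremost the HES and HEY repressors. In the vessel wall, Notch3 and Heyl are associated with pericytes and smooth muscle cells, and Dll4 and Notch4 with endothelium. In marrow stroma and in neural progenitors, the same pathway is known for holding back differentiation.

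Promoter sequences were taken from RefSeq (build GRCm38.p6) as 300 bases, 250 before and 50 after the annotated start site, and 8 of the 10 genes had an entry. Hes1 and Hey1 were not among them. RBPJ binds DNA at sites with the core TGGGAA, and this core was searched on both strands. It was found in the promoter of Hey2 and in none of the other 8 member promoters, against 25.6% of all 32851 promoters. The Hey2 window held 2 cores, 1 on each strand (TTCCCA is the core read on the opposite strand), whose first bases lay 207 and 3 bases before the start site (positions -207 and -3), and 3.79% of all promoters held 2 or more. The HES and HEY sites CACGTG (in 7.15% of all promoters) and CACGAG (in 6.47%) were found in none of the 9. A match is a description of letters and was not tested as a binding site. The Hey2 promoter is printed because it holds the core, which stands in capitals, and the promoters of Jag1 and Jag2 because the signals of these ligands lay in opposite directions. All 3 lie on the minus strand and are written 5′ to 3′ in the direction of transcription, at chr10:30842734-30843033 (Hey2), chr2:137116471-137116770 (Jag1) and chr12:112929446-112929745 (Jag2).
Hey2: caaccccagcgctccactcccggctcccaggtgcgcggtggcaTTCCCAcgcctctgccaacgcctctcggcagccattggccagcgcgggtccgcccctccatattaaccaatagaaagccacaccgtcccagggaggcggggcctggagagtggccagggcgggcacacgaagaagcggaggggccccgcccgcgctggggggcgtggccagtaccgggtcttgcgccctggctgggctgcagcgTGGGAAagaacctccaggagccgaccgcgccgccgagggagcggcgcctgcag
Jag1: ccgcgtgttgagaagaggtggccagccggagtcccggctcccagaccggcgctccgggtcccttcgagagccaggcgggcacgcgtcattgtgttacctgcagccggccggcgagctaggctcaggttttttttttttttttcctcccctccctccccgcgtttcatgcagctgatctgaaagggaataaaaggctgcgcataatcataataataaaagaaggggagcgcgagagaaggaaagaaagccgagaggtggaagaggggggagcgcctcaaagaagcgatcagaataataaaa
Jag2: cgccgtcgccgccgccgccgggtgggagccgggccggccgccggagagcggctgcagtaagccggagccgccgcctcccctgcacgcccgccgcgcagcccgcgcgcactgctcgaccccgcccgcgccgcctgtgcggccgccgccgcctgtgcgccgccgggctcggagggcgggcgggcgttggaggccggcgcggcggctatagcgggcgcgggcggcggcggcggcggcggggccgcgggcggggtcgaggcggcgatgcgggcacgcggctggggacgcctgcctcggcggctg
The GC content was 86.0% for Jag2, 72.0% for Hey2 and 55.7% for Jag1, where the median over all promoters was 52.7%. A GC content as high as that of Jag2 was found in 19 promoters, or 0.0578% of all.

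The deposited values are MAS5 signals, an intensity on a linear scale, scaled by the authors so that the trimmed mean of each array is 2500. A positive log2 fold change means a higher signal in iLarge T than in naïve BMSC, and its standard error (SE) comes from limma, which fits a linear model to each probe set and borrows the spread from the others. To be called, a probe set had to differ by 2-fold or more with an adjusted p under 0.05 (Benjamini-Hochberg over all 45037 probe sets). Since detection calls are not in the table used, the background limit was set at the 40th percentile of an array (signals of 183 to 299.6), and a group with none of its 3 arrays above it is described as near background. A fold against such a group is given as a lower bound, its dim arrays being raised to that percentile.

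The arrays of a group differed from each other. The correlation of log2 signals across all probe sets was 0.892 for naïve arrays 3 and 5, 0.829 and 0.831 for naïve array 1 with either of them, and 0.845 to 0.863 among the iLarge T arrays. Probe sets are not independent replicates. The 3' to 5' ratio of the Gapdh control, a measure of RNA integrity, was between 0.673 and 0.831. Naïve array 1 and iLarge T array 6 stood apart in marker genes of other cell types, as given below, so results that rest on them are also given without them. In naïve BMSC, labelled as bone marrow stromal cells, 6 of 6 mesothelial markers were above background. Of these, 5 (Wt1, Upk3b, Upk1b, Krt19 and Lrrn4) were called lower in iLarge T BMSC, where Upk3b was near background. What these markers say of the identity of the cells was not tested. Of 9 stromal markers, none was near background in either group, 0 were called higher and 1, Vcam1, was called lower (-2.81, limma adjusted p = 0.0013).

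**Figure D1:**
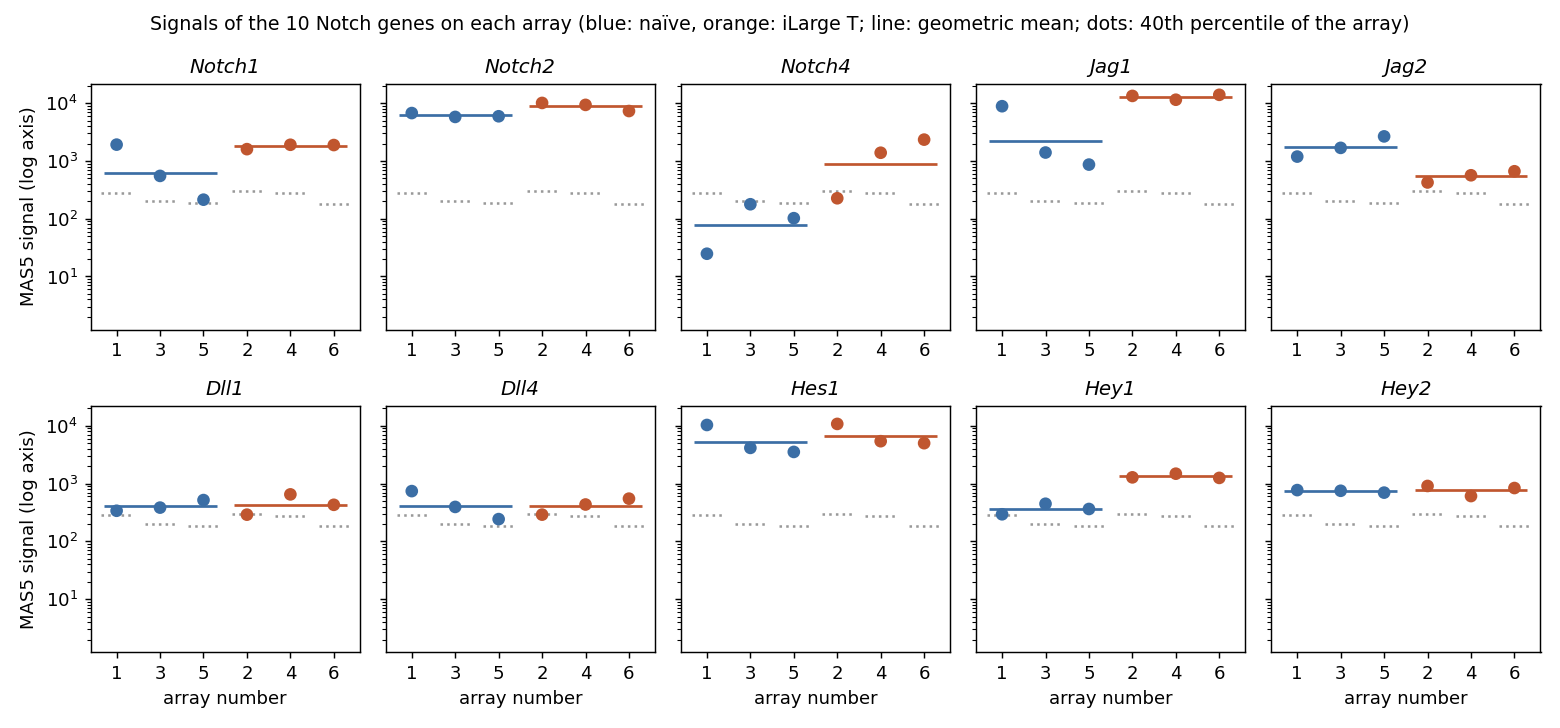
MAS5 signal (log axis) of the brightest probe set of each of the 10 genes on naïve arrays 1, 3 and 5 (blue) and iLarge T arrays 2, 4 and 6 (orange); lines are geometric means and dotted lines the 40th percentile of each array. The groups are apart for Notch2, Notch4, Jag1, Jag2 and Hey1, and Notch1, Jag1 and Hes1 are brighter on naïve array 1 than on naïve arrays 3 and 5.

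Of the 10 genes, 1 was called higher in iLarge T BMSC (Hey1), 0 were called lower and 9 were not called. Over all genes, 3.54% were called higher and 3.26% lower by the same rule, or 6.80% in either direction. At an unadjusted p under 0.05, 4 of the 10 genes were higher and 1 was lower, and 22.0% of all genes passed this limit in either direction. All 3 iLarge T arrays lay above all 3 naïve arrays for 4 genes (Notch2, Notch4, Jag1 and Hey1), where 14.5% of all genes did so. They lay below them for 1 gene (Jag2), where 13.1% of all genes did so. The groups were thus apart for 5 of the 10 genes and for 27.6% of all genes. The median log2 fold change was 0.42 over the 10 genes and 0.06 over all genes, and 8 of the 10 values were positive. Over the 18 probe sets, 1 was called higher and 1 lower (a dimmer Jag2 probe set), beside 2.47% and 2.27% of all probe sets (4.74% in either direction). With pairs of arrays taken from the spike-in controls as a block, chosen after seeing the data, Notch4 (limma adjusted p = 0.0290), Jag1 (0.0309) and Jag2 (0.0336) also passed the call. Over all probe sets, calls rose in both directions with this block, to 1597 higher against 1113 in the main fit. In RNA from a whole culture, fewer cells of a type and less RNA per cell cannot be told apart.

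**Figure D2:**
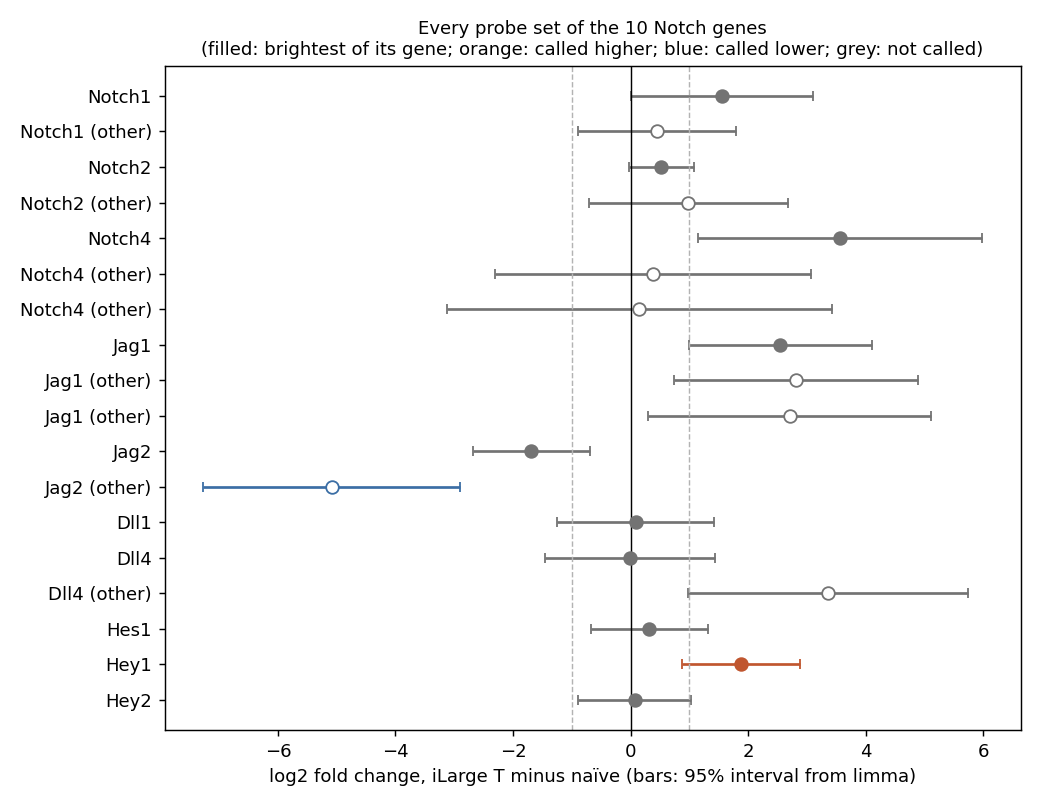
Log2 fold change (iLarge T minus naïve) of all 18 probe sets of the 10 genes with the 95% interval from limma; filled points are the brightest probe set of a gene, and dashed lines mark 2-fold. Hey1 (orange) was called higher, a dimmer Jag2 probe set (blue) was called lower, and the other intervals belong to probe sets that were not called.

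Among the receptors, none was called, and the brightest probe set of each had a positive log2 fold change. Notch1, a receptor found on most Notch-responsive cells, had signals of 1912, 550.1 and 213 on naïve arrays 1, 3 and 5 and of 1597, 1902 and 1881 on iLarge T arrays 2, 4 and 6. The 3 iLarge T arrays were close to each other, while the naïve arrays spread widely, and naïve array 1 lay above the iLarge T arrays, so the groups overlapped. The log2 fold change was 1.56 (SE 0.69, limma adjusted p = 0.280). Without naïve array 1 it was 2.38 with an adjusted p of 0.0119, which passes the call. The dimmer Notch1 probe set gave 0.45 (adjusted p = 0.783), with signals of 1733, 527 and 369 against 751, 1101 and 1027, and it too was brightest on naïve array 1.

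Notch2, a receptor known for its part in stromal and B cell development, was bright on every array. Its signals were 6727, 5768 and 5920.3 in naïve BMSC (mean 6138 ± 515, SD, n = 3) and 10069.8, 9319.6 and 7294 in iLarge T BMSC (8895 ± 1436, n = 3). Every iLarge T array lay above every naïve array, and the gap was narrow. On the log2 scale the difference was 0.53 (95% interval -0.02 to 1.07, limma adjusted p = 0.305), an interval that holds no change as well as a change of 2-fold. The other Notch2 probe set was dim, with naïve array 1 under the 40th percentile, and gave 0.98 (adjusted p = 0.584).

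Notch4, the receptor known chiefly from endothelium, was near background on all naïve arrays, at 24.8, 178 and 102. The iLarge T signals were 226, 1384 and 2335, of which the first lay under the 40th percentile of its array. The groups did not overlap, and the mean of iLarge T BMSC was at least 4.12-fold higher, but the difference was not called (limma adjusted p = 0.104). That bound was 2.56-fold without iLarge T array 6 and 8.22-fold without iLarge T array 2. The other 2 Notch4 probe sets had 2 of 3 arrays under the 40th percentile in each group, and their adjusted p-values were 0.921 and 0.978.

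The Jagged ligands lay in opposite directions. Jag1, the ligand known for inducing smooth muscle differentiation and for supporting blood stem cells in the marrow, had signals of 8838, 1396 and 863 on the naïve arrays and of 13322, 11444 and 13920.0 on the iLarge T arrays. All iLarge T arrays were high and close together, naïve array 1 came near them, naïve arrays 3 and 5 were low, and the groups did not overlap. This gave a log2 fold change of 2.55 (SE 0.70, 95% interval 0.99 to 4.10, limma adjusted p = 0.0729), so Jag1 was not called. Without naïve array 1 it was 3.55 (adjusted p = 6.73e-05), and without any other single array it stayed uncalled. With naïve array 1 and iLarge T array 6 both left out, the value was 3.49 (adjusted p = 0.000521).

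The other Jag1 probe sets showed the same arrangement of arrays. The signals of the first were 2463, 140.1 and 173 against 3483, 2515 and 2372, a log2 fold change of 2.81 (limma adjusted p = 0.136), with naïve array 1 above iLarge T array 6. The signals of the second were 1189, 336 and 32.6 against 1673, 1401 and 1534, or 2.70 (adjusted p = 0.221), with no overlap. Naïve array 1 was the brightest naïve array for both, and both were called without it. The first was then near background on both remaining naïve arrays and at least 14.3-fold higher in iLarge T BMSC (adjusted p = 0.000316), and the second gave 3.87 (adjusted p = 0.0192).

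Jag2, a ligand best known from limb, thymus and epithelial development, had signals of 1187, 1681 and 2656 in naïve BMSC (mean 1842 ± 748, SD, n = 3) and of 424, 564 and 662 in iLarge T BMSC (549.9 ± 119.8, n = 3). Every iLarge T array lay below every naïve array. The log2 fold change was -1.69 (SE 0.45, limma adjusted p = 0.0651), short of a call, and it passed the call without naïve array 1 (-1.97, adjusted p = 0.0175) and with no other single array left out. The second Jag2 probe set was called lower, with signals of 631, 2852 and 2966 against 169, 20.3 and 39.8 (adjusted p = 0.0173). All 3 iLarge T arrays were near background there, so it was at least 7.09-fold lower, and at least 11.8-fold without naïve array 1. This call was lost without naïve array 3 (0.110), naïve array 5 (0.101), iLarge T array 4 (0.0552) or iLarge T array 6 (0.0622).

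Neither Delta-like ligand was called, and their main values lay near 0. Dll1, a ligand of embryonic segmentation and neurogenesis, had signals of 339, 384 and 518 against 290.0, 650.4 and 429, which overlapped. Its log2 fold change was 0.09, with a 95% interval of -1.24 to 1.42 (limma adjusted p = 0.967). Dll4, the ligand of sprouting endothelium, had signals of 741, 395 and 243 against 290.3, 435 and 549, which overlapped as well. Its log2 fold change was -0.01, with an interval of -1.46 to 1.43 (adjusted p = 0.995). A p that misses the threshold does not show that the groups are alike, and both intervals reach past 2-fold in either direction.

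The dimmer Dll4 probe set differed from the brighter one. It was near background on the naïve arrays, at 46.3, 38.6 and 17.6, and its iLarge T signals were 269, 151 and 842, of which the first and the second also lay under the 40th percentile. The groups did not overlap, and among the 6 arrays iLarge T array 6 alone stood above that limit. The mean of iLarge T BMSC was at least 1.48-fold higher (limma adjusted p = 0.120).

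Among the targets, Hey1 rose in iLarge T BMSC. Hey1, a transcriptional repressor induced by Notch in vessels and in mesenchymal cells, had signals of 294, 448 and 364 on the naïve arrays (mean 369 ± 76.9, SD, n = 3) and of 1282, 1484 and 1255 on the iLarge T arrays (1340.2 ± 125.0, n = 3). Both groups were tight, no array of either stood apart, and the groups did not overlap. The log2 fold change was 1.88 (SE 0.45, 95% interval 0.88 to 2.88), or 3.68-fold (limma adjusted p = 0.0438). The call was near its limit. It was kept without naïve array 1 (adjusted p = 0.0275), with naïve array 1 and iLarge T array 6 both left out (0.0426) and when low signals were set to the 40th percentile of their array (0.0217). It was lost without naïve array 3 (0.110), naïve array 5 (0.133) or iLarge T array 2, 4 or 6 (0.113, 0.178 and 0.121), under which the log2 fold change stayed between 1.80 and 2.03. It was also lost by the methods' t-test on log2 signals (0.0728) or linear signals (0.0669), by limma without the intensity trend (0.0867) and with quantile normalization (0.0585).

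Hes1 and Hey2 were not called. Hes1, the general HES target of Notch and also a target of other pathways, had signals of 10334, 4149 and 3531 against 10783, 5416 and 5002. Its brightest arrays were naïve array 1 and iLarge T array 2, the other 4 arrays were lower, and the groups overlapped. The difference was 0.32 on the log2 scale, with a 95% interval of -0.68 to 1.31 (limma adjusted p = 0.794). Hey2, the family member known from heart and arteries, had signals of 772, 751 and 698 against 910.05, 608 and 838, with overlap. Its log2 fold change was 0.07, with an interval of -0.90 to 1.03 (adjusted p = 0.965). Whether Hey1 and these 2 targets differ from each other in their change was not tested.

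**Figure D3:**
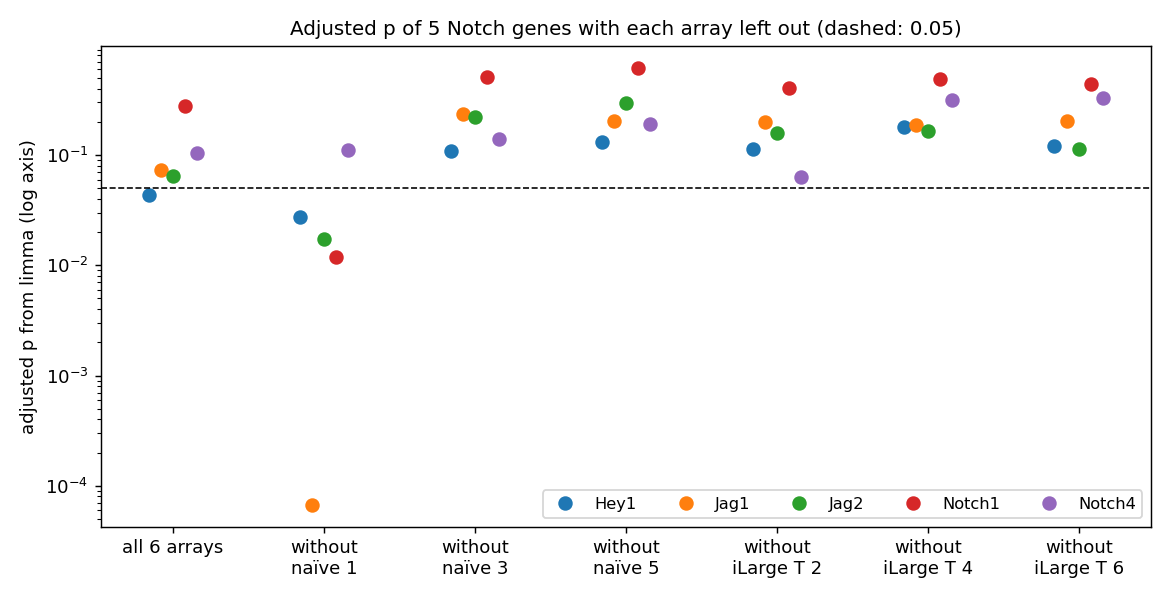
Adjusted p from limma (log axis) of the brightest probe sets of Hey1, Jag1, Jag2, Notch1 and Notch4 with all 6 arrays and with each array left out; the dashed line marks 0.05. Without naïve array 1, Hey1, Jag1, Jag2 and Notch1 lie under 0.05, and without any other single array none of the 5 does. Calls over all probe sets moved likewise, from 1113 higher and 1024 lower with all 6 arrays to 2342 and 2140 without naïve array 1. Without any other single array they were 422 to 612 higher and 367 to 595 lower.

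Naïve array 1 and iLarge T array 6 also differed from the other arrays of their groups in marker genes. Naïve array 1 exceeded the mean of naïve arrays 3 and 5 by 3.01 log2 units for Jag1, 2.48 for Notch1, 1.43 for Hes1 and 1.26 for Dll4. It differed from that mean by 0.20 for Notch2, 0.09 for Hey2, -0.40 for Dll1, -0.46 for Hey1, -0.83 for Jag2 and -2.44 for Notch4. Of 12 pericyte and smooth muscle markers, 6 were brighter on naïve array 1 than on both of the others. Such a count was not particular to these markers. It was 6 of 12 for endothelial, 6 of 10 for macrophage and microglia, and 5 of 10 for astrocyte and neural progenitor markers. For stromal, oligodendrocyte and mesothelial markers it was 5 of 9, 2 of 5 and 1 of 6. In the pericyte and smooth muscle list, Acta2, smooth muscle actin, was at 151611 on naïve array 1 against 35112 and 31483. The summed signal of this list was 270616 on naïve array 1, 62705 and 59939 on naïve arrays 3 and 5, and 254080 to 334934 on the iLarge T arrays, and most of it came from Acta2 and Tagln. Without these genes it was 18708 on naïve array 1, 5089 and 6338 on naïve arrays 3 and 5, and 60049 to 120454 on the iLarge T arrays. The pericyte markers Pdgfrb (2547 against 4278 and 4188) and Cspg4 (376 against 369.7 and 420.1) were not raised on naïve array 1. Of these 12 genes, 3 were called higher in iLarge T BMSC (Pdgfrb, Rgs5 and Cspg4), and 5 were near background in naïve BMSC (Rgs5, Kcnj8, Abcc9, Anpep and Myh11). Neuronal markers were also brighter on naïve array 1 in 6 of 7 cases, with a summed signal of 11752 against 1878 and 1601. Stmn2 gave most of the sum on naïve array 1 (7896.5 against 437 and 166). Mesothelial markers summed to 125049 there against 203327 and 197249, with Msln at 1022 against 42403 and 40853. The part of such cells in the values of Jag1, Notch1, Hes1 and Dll4 was not tested.

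Notch4 and the dimmer Dll4 probe set were brightest on iLarge T array 6, as given above. All 12 endothelial markers were brighter on iLarge T array 6 than on both other iLarge T arrays. Their summed signal was 70448 there against 11461 and 10988, and 9205 to 13110 on the naïve arrays. This count was not particular to endothelial markers. It was 5 of 5 for oligodendrocyte, 9 of 10 for macrophage and microglia, and 7 of 12 for pericyte and smooth muscle markers. For stromal, mesothelial, astrocyte and neural progenitor, and neuronal markers it was 5 of 9, 2 of 6, 2 of 10 and 1 of 7. In naïve BMSC, 7 of the 12 endothelial markers were near background (Pecam1, Cdh5, Tie1, Flt1, Emcn, Vwf and Erg). Of the 12, Flt1, Cdh5 and Emcn were called higher and Tek was called lower, and 11 log2 fold changes were positive. Most of each naïve sum came from Tek, at 5703, 8480 and 9080 on naïve arrays 1, 3 and 5. On iLarge T arrays 2 and 4, Tek was at 502 and 458. Cdh5 was at 2211 and 2787 there, against 210, 32.0 and 27.5 on the naïve arrays. Emcn was at 2857 and 2917 there, against 17.4, 108 and 122. Macrophage and microglia markers summed to 130442 on iLarge T array 6, to 7136 and 7603 on iLarge T arrays 2 and 4 and to 3498 to 11198 on the naïve arrays, and 1 of 10 (Csf1r) was called higher. In naïve BMSC, 4 of these 10 were near background (Ptprc, Itgam, Aif1 and Tyrobp), and 9 of the 10 log2 fold changes were positive. Most of the sum on naïve arrays 3 and 5 came from Cd68 (9873 and 8396), which was at 317 and 1329 on iLarge T arrays 2 and 4. Most of the sum on iLarge T array 6 came from Lyz2 (78316). On iLarge T arrays 2 and 4, Lyz2 was at 1125 and 2844, against 324, 200 and 34.2 on the naïve arrays. Csf1r was at 3716 and 1892 there, against 883, 330 and 339. Without iLarge T array 6, Notch4 was at least 2.56-fold higher (limma adjusted p = 0.329), and both groups of the dimmer Dll4 probe set were under the limit, so no fold is given (adjusted p = 0.326). Growth at 33°C selects for cells with the large T antigen, and the part of endothelial cells or macrophages in these values was not tested. Hey1 differed on iLarge T array 6 by -0.14 log2 units from the other iLarge T arrays.

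**Figure D4:**
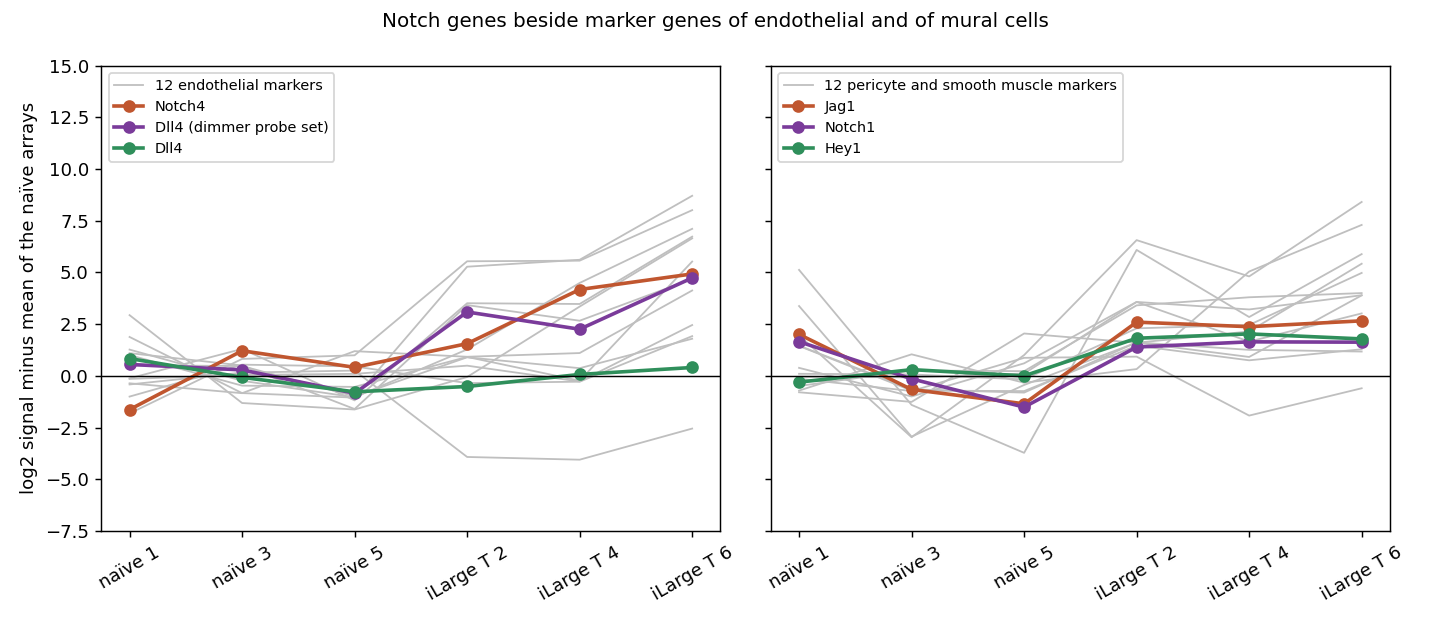
Log2 signal minus the mean of the naïve arrays on each of the 6 arrays, for Notch4 and both Dll4 probe sets beside 12 endothelial markers (left, grey) and for Jag1, Notch1 and Hey1 beside 12 pericyte and smooth muscle markers (right, grey). All endothelial markers are brightest among the iLarge T arrays on array 6, Jag1 and Notch1 are high on naïve array 1, and Hey1 is level within each group.

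Of 66 other genes of the pathway, listed from general knowledge, 61 had a probe set of their own. Of these, 1 was called higher and 3 lower, or 1.64% and 4.92%, beside 3.54% and 3.26% of all genes. Their median log2 fold change was 0.10, 32 were positive, and at an unadjusted p under 0.05 6 were higher (Notch3, Dner, Cntn1, Dtx1, Fbxw7 and Pofut1) and 9 lower (Tle4, Crebbp, Kat2b, Hdac1, Adam10, Dtx2, Dtx3l, Neurl1b and Dvl2). Rbpj, the DNA-binding partner of all Notch receptors, was not called (0.37, limma adjusted p = 0.571). None of the 6 glycosylation and furin genes, of the 7 genes of receptor cleavage, of the 10 corepressors or of the 7 other targets was called by its brightest probe set.

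The gene called higher was Dner, which encodes a Delta and Notch-like membrane protein first known from neurons and glia. Its signals were 286, 105 and 21.6 in naïve BMSC, of which the second and the third lay under the 40th percentile, and 4346, 5869 and 5114 in iLarge T BMSC. All iLarge T arrays were far above all naïve arrays. The log2 fold change was 5.87 (SE 0.83, limma adjusted p = 0.00428), or 58.6-fold as measured and 23.1-fold when low signals were set to the 40th percentile. The second Dner probe set, of a type that may also bind other transcripts, was near background on all naïve arrays and at least 21.1-fold higher in iLarge T BMSC (adjusted p = 0.00401). No single array left out removed the call. Of 10 astrocyte and neural progenitor markers, 4 were also called higher (Sox2, Nes, Fabp7 and S100b). The 10 summed to 1702 to 2100 on the naïve and 17524 to 30078 on the iLarge T arrays. Most of the sum on iLarge T arrays 2 and 4 came from Fabp7 (15091 and 17375). Called higher as well were 2 of 7 neuronal markers (Tubb3 and Stmn2), and 0 of 5 oligodendrocyte markers. Log2 fold changes were positive for 9 of the 10, 6 of the 7 and 1 of the 5. Pax6 (-0.64) in the first list and Map2 (-1.52) in the second were negative and not called. Near background in naïve BMSC were Slc1a3, Sox2, Olig2 and S100b, the neuronal Syn1, Snap25 and Nefl, and the oligodendrocyte gene Mog, of which Nefl and Mog were near background in iLarge T BMSC as well. Their part in the Dner result was not tested.

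Notch3, the receptor of vascular mural cells, had signals of 625, 480.7 and 427 against 1341, 1363 and 4864. The groups did not overlap, iLarge T array 6 was far above the others, and the log2 fold change of 2.04 was not called (limma adjusted p = 0.0685). Without iLarge T array 6 it was 1.42 (adjusted p = 0.205). The brightest Notch3 probe set is of a type that may bind further transcripts. The dimmer Notch3 probe set was near background on all naïve arrays. Its iLarge T signals were 346, 33.7 and 2385, of which the second lay under the 40th percentile. The groups overlapped there, the lower bound of the fold was 1.39, and the limma adjusted p was 0.591. Heyl, a further gene of the HEY family, was not called by its brightest probe set (1.30, adjusted p = 0.664). The next brightest Heyl probe set, near background in naïve BMSC, was not called either (adjusted p = 0.583), and the groups overlapped. Its iLarge T signals were 77.9, 266 and 500, of which the first and the second lay under the 40th percentile. The dimmest of the 3 was near background in naïve BMSC as well, at 34.3, 27.0 and 24.8. Its iLarge T signals were 406, 475 and 587. It alone was called, at least 2.21-fold higher (adjusted p = 0.0313).

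The genes called lower act in the nucleus or attach ubiquitin. Kat2b, an acetyltransferase and coactivator of the Notch nuclear complex, fell from 18466, 17404 and 17071 to 2734, 5134 and 6641, with no overlap and a log2 fold change of -1.96 (SE 0.33, limma adjusted p = 0.00939). Neurl1b, a ubiquitin ligase that promotes uptake of Notch ligands, fell from 1089.7, 1277 and 1818 to 229, 187 and 215, of which the first and the second lay under the 40th percentile, a log2 fold change of -2.70 (SE 0.51, adjusted p = 0.0159). Dtx2, a Deltex ubiquitin ligase that binds the receptor, fell from 3210.0, 4675 and 4946 to 1865, 1214 and 1465, a log2 fold change of -1.49 (SE 0.32, adjusted p = 0.0281). The 3 iLarge T arrays lay below all naïve arrays for each of them. The call of Kat2b was kept without any 1 array, that of Neurl1b was lost without naïve array 3 (0.0912), naïve array 5 (0.125) or iLarge T array 4 (0.0539), and that of Dtx2 without naïve array 3 (0.145), naïve array 5 (0.139), iLarge T array 4 (0.120) or iLarge T array 6 (0.0855). The Dtx2 and Kat2b probe sets are of types that may bind further transcripts, and the other Dtx2 probe set (-0.98, adjusted p = 0.287) and the other 2 of Kat2b (-2.52, adjusted p = 0.0890, and -2.04, adjusted p = 0.506) were not called.

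**Figure D5:**
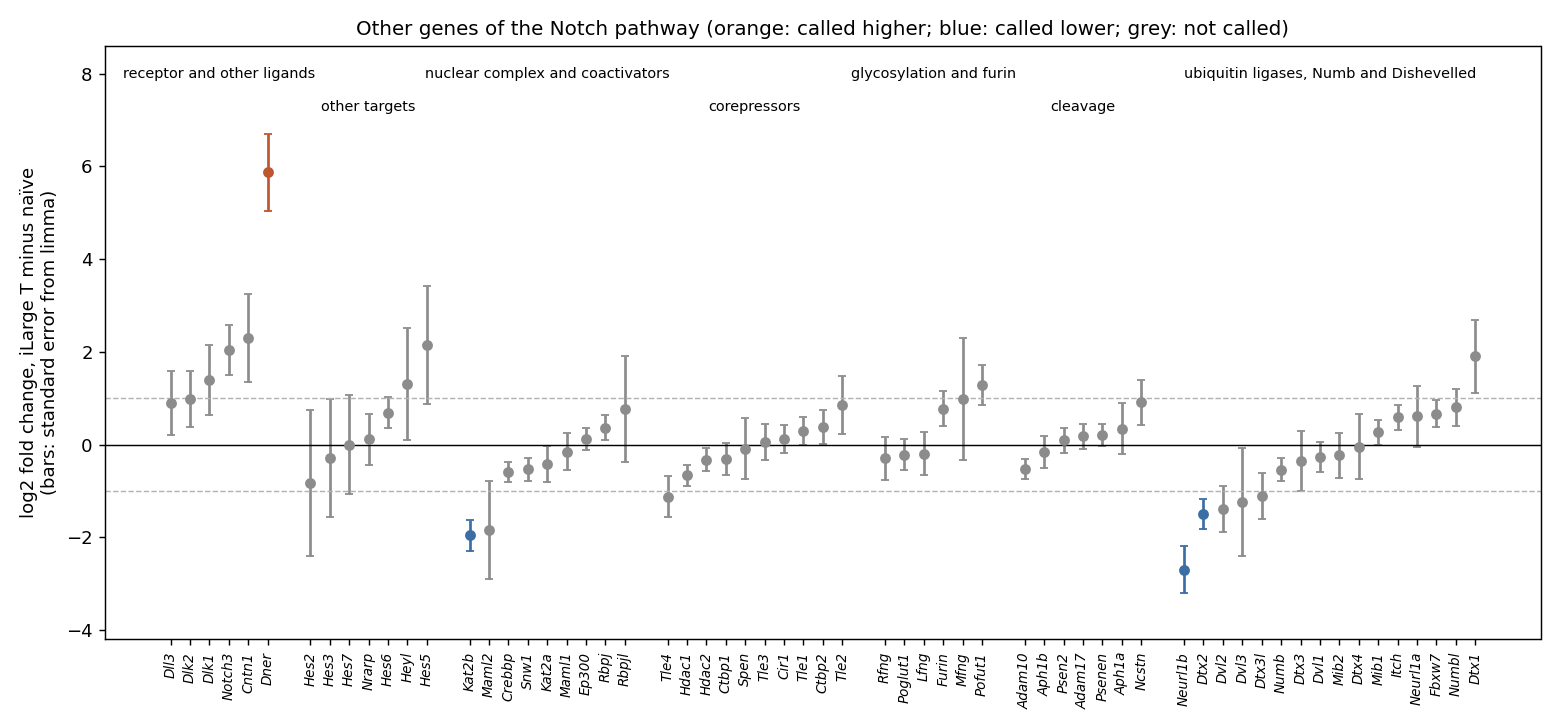
Log2 fold change (iLarge T minus naïve) with its SE from limma for the brightest probe sets of 61 other Notch pathway genes, grouped by role; dashed lines mark 2-fold. Dner (orange) was called higher, Kat2b, Neurl1b and Dtx2 (blue) were called lower, and 57 genes (grey) were not called.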

How the data were processed

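Pooled RNA was hybridized to 6 arrays, 3 for each group. The deposited values are intensity signals that the authors made with the MAS5 algorithm in GeneChip Operating Software 1.2, and log2 was taken here before the tests. Precision is limited by how few arrays there are. Of 45101 probe sets, 64 controls were left out. Of the remaining 45037, 34945 had 1 gene symbol, 932 had several and 9160 had none in the annotation used. Probe sets with several symbols named no gene. Of those with 1 symbol, 34741 were found by gene identifier in RefSeq, and 0 symbols changed. Some genes of the pathway list are not analysed here.

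In R 4.3.3, log2 signals were fitted with limma 3.58.1, using lmFit and then eBayes with its intensity trend, and the script was first tested on simulated data with known changes. This departs from the unpaired t-test of the methods, which was an alternative. The t-tests were also run in R. Python 3.11.15 with pandas 2.3.3 and numpy 2.4.6 made the tables, and matplotlib 3.10.9 the figures. The labels do not say how the pools of different arrays relate, so the spread behind each p-value is that between arrays and may be technical.

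The 10 genes, the pathway list and the marker lists were chosen with earlier results of these data known. Named are all 10 genes, pathway genes that were called or had an unadjusted p under 0.05, and markers that were called or near background. Rbpj, Heyl, Acta2, Tagln, Msln, Cd68, Lyz2, Pax6 and Map2 were named after their values were seen.

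Alternatives were the t-test of the methods on log2 and on linear signals, limma without the trend, quantile normalization, a filter that keeps probe sets with at least 3 of 6 arrays at or above the 40th percentile (27870 probe sets), low signals set to that percentile, a constant of 16 added before log2, each array left out in turn, the most variable probe set or the mean of the probe sets of a gene, and other fold thresholds. The spike-in pairs as a block and leaving out naïve array 1 with iLarge T array 6 were chosen after seeing the data.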

Additional observations from a re-analysis of the deposited data

How the results depend on the processing

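Of the 10 genes, 1 was called higher and 0 lower. No gene was called higher by the methods' t-test on log2 or linear signals, without the intensity trend, with quantile normalization or at 4-fold (0 each), and 3 were when low signals were set to the 40th percentile (raised). With arrays left out one at a time, 0 to 3 were called higher and 0 to 1 lower. The count of lower genes was 1 without dim probe sets, with low signals raised, with the most variable probe set and with the mean over the probe sets of a gene. Among the 61 pathway genes (1 higher, 3 lower), 0 were called in either direction by both t-tests and without the trend, 2 were higher with low signals raised or the most variable probe set, 1 was lower at 4-fold, and the range over arrays left out was 1 to 2 higher and 1 to 5 lower. Of all probe sets (1113 higher, 1024 lower), 15 and 13 were called by the t-test on log2 signals, 33 and 67 on linear signals, 186 and 109 without the trend, 1677 higher with low signals raised, and 596 lower at 4-fold, with ranges of 422 to 2342 higher and 367 to 2140 lower over arrays left out. Among arrays left out one at a time, the upper ends for probe sets and for the 10 genes came without naïve array 1.

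The labels give the groups no shared replicate numbers, so no pairing by label was possible. Arrays nearest in their 18 spike-in probe sets (1 with 2, 3 with 4, 5 with 6) were taken as a block after seeing the data, which gave 3 higher (Notch4, Jag1 and Hey1) and 1 lower (Jag2) of the 10 genes, 2 and 5 of the pathway, and 1597 and 1549 probe sets. With naïve array 1 and iLarge T array 6 both left out, 3 and 1 of the 10 genes, 1 and 7 of the pathway, and 2189 and 2375 probe sets were called. Signs turned for values near 0: Dll1 was -0.060 with quantile normalization and -0.039 with both arrays left out, Dll4 was 0.0026 with low signals raised, 0.20 with both arrays left out, 3.36 with the most variable probe set and 1.67 with their mean, and Hey2 was -0.0067 with quantile normalization. With 1 array left out, Dll1 ranged from -0.21 to 0.38, Dll4 from -0.40 to 0.41, Hes1 from -0.034 to 0.79 and Hey2 from -0.051 to 0.24. The log2 fold changes of Notch1, Notch2, Notch4, Jag1, Jag2 and Hey1 kept their sign in all alternatives run, and Hey1 lay between 1.73 and 2.03. The causes of these shifts were not tested. Signals under the 40th percentile limit what Notch4, the dimmer Dll4 probe set and Dner can show.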
